A study of Rattus norvegicus with 48 samples.

Results

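The liver makes bile acids from cholesterol, joins them to taurine or glycine, secretes them into bile and takes them back up from portal blood. 10 rat genes of this system were followed through chemically induced liver cancer: Cyp7a1, Cyp8b1, Cyp27a1, Cyp7b1 and Akr1d1 of synthesis, Slc27a5 and Baat of conjugation, Slc10a1 of uptake, and the nuclear receptors Nr1h4 and Nr0b2. They were chosen as a named list with earlier results of these data known, have 1 probe each on the array, and are 10 of the 9273 named genes tested. All 10 passed the filter on detection. Slc27a5 and Cyp8b1 fell in Krt19-high nodules, adenomas, early carcinomas and advanced carcinomas, by 6.12-fold to 28.5-fold for Slc27a5 and by 6.39-fold to 22.4-fold for Cyp8b1 against control liver. Akr1d1, an enzyme of the same pathway, did not pass the test in any of these comparisons.

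In the classic route of synthesis the cytochrome Cyp7a1 hydroxylates cholesterol, and Cyp8b1 then directs the product towards cholic acid. The alternative route begins with Cyp27a1 in mitochondria and continues through Cyp7b1, and both routes use Akr1d1 to reduce the steroid ring. Slc27a5 activates the finished bile acid with coenzyme A, Baat transfers it to the amino acid, and Slc10a1 carries conjugated bile acids from sinusoidal blood into the hepatocyte together with sodium. Nr1h4 (FXR) senses bile acids and induces Nr0b2 (SHP), a repressor of Cyp7a1 and Cyp8b1.

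The study profiled laser-microdissected tissue from livers of male F-344 rats on Illumina beadchips, with 48 arrays in 6 groups named by the sample titles. These are 10 KRT19-positive nodules, 10 KRT19-negative nodules, 4 adenomas, 5 early hepatocellular carcinomas (eHCC), 9 advanced hepatocellular carcinomas (aHCC) and 10 control livers. The protocol given for the animals is diethylnitrosamine at 150 mg/kg, a recovery of 2 weeks, 2-acetylaminofluorene at 0.02% of the diet for 1 week, partial hepatectomy and 1 more week of that diet. Nodules date from 10 weeks, adenomas and eHCC from 10 months and aHCC from 14 months. The same treatment text is attached to the control livers, whose age and exposure are not stated, so lesion and control may differ in age and treatment as well as in tissue. The labels do not tie lesions to animals. Lesions of one group may therefore share an animal, in which case the p-values over captured regions are too small, and the spread between arrays may be partly technical.

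KRT19 (cytokeratin 19) is a biliary and progenitor cell marker, and its transcript went against the titles in 10 of the 20 nodules. In samples 1 to 10 the titled positives had the higher Krt19 level, whereas samples 15 to 19, titled negative, read 11.49 to 12.96 and samples 20 to 24, titled positive, read 7.70 to 10.60 (log2 intensity). The nodules were therefore also read as 10 Krt19-high nodules (samples 1 to 5 and 15 to 19, median 12.09, range 11.49 to 13.15) and 10 Krt19-low nodules (samples 6 to 10 and 20 to 24, median 9.27, range 7.68 to 10.60). Control livers read 7.38 to 8.76. The Krt19 level named the sets, so it is a description and no result, and samples 1 to 14 (run A) and 15 to 27 (run B) are only stretches of consecutive sample numbers.

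All values below are log2 intensity of 1 probe, and a change is a difference of group means on that scale, written ± its standard error (SE), with the numbers of arrays given above. The test was limma over 13479 features, and a gene is said to have passed where its Benjamini-Hochberg adjusted p was under 0.05. Levels of different probes are not comparable with each other. The main fit subtracted no background, so a probe low in control liver, such as those of Cyp7b1 and Nr0b2, has less room to fall. Between 8323 and 11434 of the 22523 probes were detected per array, and the number of arrays limits the precision. Means over 8 hepatocyte markers spanned 14.49 to 14.84 in control liver, 14.53 to 14.77 in Krt19-low nodules, 13.97 to 14.54 in Krt19-high nodules, 13.64 to 14.28 in adenomas, 13.16 to 14.16 in eHCC and 12.31 to 14.37 in aHCC. These transcripts were thus read in every group. The means lay wholly below the control range in adenomas, eHCC and aHCC, partly below it in Krt19-high nodules and within it in Krt19-low nodules. In bulk tissue fewer hepatocytes and less RNA per hepatocyte cannot be told apart. The array of aHCC sample 29 stood apart at 12.31 where the other 8 aHCC arrays read 13.80 to 14.37, and results that rest on it are given with and without it.

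RefSeq promoters (build GRCr8, 250 bases before to 50 after the start) were available for 6 of the 10 genes. The 4 shown belong to the conjugation enzymes, the uptake carrier and Cyp8b1, all of which fell together in the lesions described below. Capitals mark matches, on either strand, to 4 strings: AGGTCA of nuclear receptor elements, AAGGTCA of receptors that bind as monomers (it contains the first string), CAAAGTCCA of HNF4A elements and TATAAA of the TATA box.
Cyp8b1: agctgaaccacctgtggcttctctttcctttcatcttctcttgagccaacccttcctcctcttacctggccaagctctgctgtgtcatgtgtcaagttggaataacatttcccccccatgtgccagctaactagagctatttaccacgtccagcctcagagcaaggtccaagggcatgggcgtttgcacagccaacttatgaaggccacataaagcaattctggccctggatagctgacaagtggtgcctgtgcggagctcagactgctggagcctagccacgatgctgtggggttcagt
Slc27a5: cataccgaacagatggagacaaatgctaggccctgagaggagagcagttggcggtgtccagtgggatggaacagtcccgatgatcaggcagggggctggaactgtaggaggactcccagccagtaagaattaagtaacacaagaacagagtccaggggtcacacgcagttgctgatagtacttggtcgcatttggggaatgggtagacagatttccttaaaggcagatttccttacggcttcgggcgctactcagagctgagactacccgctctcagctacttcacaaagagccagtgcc
Baat: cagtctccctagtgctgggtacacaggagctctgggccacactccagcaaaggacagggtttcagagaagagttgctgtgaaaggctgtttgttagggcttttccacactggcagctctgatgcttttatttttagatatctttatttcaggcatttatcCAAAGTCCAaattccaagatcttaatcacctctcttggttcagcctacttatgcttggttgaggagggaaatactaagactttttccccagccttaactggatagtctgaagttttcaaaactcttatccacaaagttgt
Slc10a1: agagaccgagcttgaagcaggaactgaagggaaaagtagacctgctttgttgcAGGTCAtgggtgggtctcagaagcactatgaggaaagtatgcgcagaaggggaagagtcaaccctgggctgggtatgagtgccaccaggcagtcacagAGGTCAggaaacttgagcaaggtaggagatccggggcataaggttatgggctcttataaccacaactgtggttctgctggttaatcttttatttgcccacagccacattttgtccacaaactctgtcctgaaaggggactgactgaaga
The windows are chr8:130457543-130457842 for Cyp8b1, chr1:82699286-82699585 for Slc27a5, chr5:68656088-68656387 for Baat and chr6:106357895-106358194 for Slc10a1, all on the minus strand and written 5′ to 3′ along the gene. Baat held CAAAGTCCA beginning 90 bases before the start, a string present in 0.4% of 33469 promoters. Slc10a1 held AGGTCA at 197 and 99 bases before the start, a string in 16.2% of promoters. None of the 4 strings occurred in the Cyp8b1 and Slc27a5 windows. Among the promoters not shown, Cyp27a1 held AGGTCA at 115 bases and, as part of AAGGTCA (4.6% of promoters), on the opposite strand at 236 bases, and Nr0b2 held TATAAA at 29 bases (14.2%). A match is a description of letters, not of a bound site.

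Set against control liver, the counts of the 10 genes that passed differed between lesion groups. In Krt19-low nodules 2 were lower and 1 was higher, where 5.07% of all features were lower and 5.28% higher. In Krt19-high nodules 7 were lower against 17.2% of features, in adenomas 8 against 12.6%, in eHCC 8 against 15.1% and in aHCC 7 against 18.8%, and in these 4 groups none was higher, where 17.4%, 13.5%, 17% and 19.2% of features were. The median change over the 10 genes was -0.30 in Krt19-low nodules, -1.10 in Krt19-high nodules, -1.52 in adenomas, -1.59 in eHCC and -1.17 in aHCC, beside medians over all features between -0.01 and 0.00. These comparisons share the same 10 control arrays, so their values stand side by side and are not independent of one another. The 10 genes were chosen with earlier results of these data known, so the shares of all features are a background and no independent test. Cell type markers moved as well: in Krt19-low nodules, Krt19-high nodules, adenomas, eHCC and aHCC in turn, 0, 2, 3, 5 and 5 of the 8 hepatocyte markers were lower, with median changes of 0.06, -0.29, -0.72, -0.91 and -0.58, and 2, 3, 3, 3 and 5 of the 7 cholangiocyte markers were higher. Krt19, whose level named the nodule sets, is 1 of these 7, so the cholangiocyte counts in nodules are not independent of the split. Of the 7 stellate and fibroblast markers 2, 5, 3, 5 and 3 were higher in the same order and 1, 1, 0, 1 and 0 lower, with median changes of 0.27, 1.15, 0.78, 0.99 and 0.11, beside cholangiocyte medians of 0.39, 0.37, 0.16, 0.50 and 1.18. Of the 5 red cell markers 2, 3, 2, 2 and 1 were lower and 0, 0, 0, 0 and 1 higher. Of the 5 macrophage markers 2, 1, 2, 2 and 1 were lower and 0, 1, 0, 0 and 0 higher. Of the 3 endothelial markers 0, 0, 1, 1 and 0 were lower and 1, 0, 0, 0 and 0 higher. Of the 5 lymphocyte markers 0, 0, 0, 0 and 1 were higher and 0 lower in every group. The part of cell composition in the falls of the bile acid genes was not tested.

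**Figure D1:**
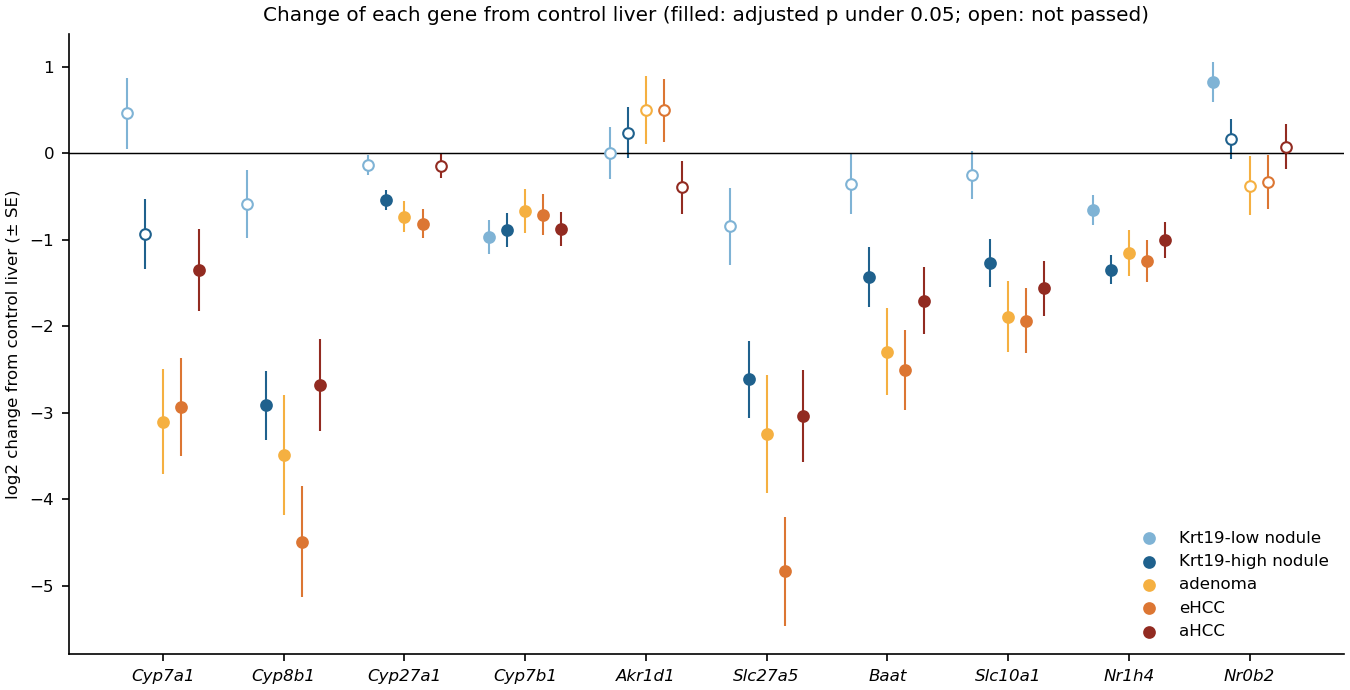
Changes of the 10 genes against control liver in 5 lesion groups, as differences of mean log2 intensity with bars of ± SE, filled points for genes that passed and open points for the others. Slc27a5 and Cyp8b1 have the lowest points, at -4.83 and -4.49 in eHCC, while Akr1d1 stays between -0.39 and 0.50.

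By title, 4 genes were lower in KRT19-positive nodules (8.98% of features were) and 5 in KRT19-negative nodules (9.7%). Cyp8b1, Slc27a5, Cyp7b1 and Nr1h4 passed in both, and Cyp27a1 in the titled negatives only; whether the titled groups differ for Cyp27a1 was tested below and did not pass.

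Among the enzymes of the classic route, Cyp8b1 showed the most separated groups. It read 13.14, 13.60 and 13.84 (lowest, median, highest) in the 10 control livers, 12.00, 13.12 and 14.24 in Krt19-low nodules, and 9.43, 10.67 and 11.74 in Krt19-high nodules. Adenomas read 10.13, 9.20, 9.47 and 11.62, eHCC read 8.19, 7.51, 9.30, 10.95 and 9.56, and the 9 aHCC read 7.74, 11.08 and 12.28. Every array of the Krt19-high nodules, adenomas, eHCC and aHCC lay below the lowest control, whereas the Krt19-low nodules overlapped the controls.

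The change of Cyp8b1 was -2.91 ± 0.40 in Krt19-high nodules (adjusted p = 8.28e-08), -3.49 ± 0.69 in adenomas (adjusted p = 0.000133), -4.49 ± 0.64 in eHCC (adjusted p = 4.32e-07) and -2.68 ± 0.54 in aHCC (adjusted p = 8.07e-05). In Krt19-low nodules it was -0.59 ± 0.40 with an adjusted p of 0.402, which does not show that the level was unchanged. A fit of those nodules and control livers alone gave the same value with an adjusted p of 0.0215. Its order of levels was control, Krt19-low nodule, aHCC, Krt19-high nodule, adenoma and eHCC. Of the neighbours tested, control and Krt19-low nodule, aHCC and Krt19-high nodule (0.24 ± 0.41), Krt19-high nodule and adenoma, and adenoma and eHCC did not differ beyond the threshold.

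Cyp7a1, the rate-limiting enzyme of the classic route, fell in both lesion groups of 10 months. Control livers read 11.02, 12.13 and 13.03 (lowest, median, highest), Krt19-low nodules 11.40, 12.52 and 13.56, and Krt19-high nodules 9.93, 11.16 and 11.93. Adenomas read 9.05, 7.68, 8.92 and 10.18, eHCC 9.87, 7.32, 8.91, 10.08 and 9.44, and aHCC 7.35, 11.24 and 12.03. Both lesion groups of 10 months lay wholly below the controls, and the nodules and aHCC overlapped them.

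Cyp7a1 fell by 3.10 ± 0.61 in adenomas, a fold of 8.58 (adjusted p = 0.000123), and it fell by 2.93 ± 0.56 in eHCC, a fold of 7.63 (adjusted p = 5.75e-05). These sizes depend on the controls used. The 3 controls in the block of the adenomas and eHCC averaged 11.33, and those of the other blocks 12.25 to 12.63. Adenomas averaged 8.96 and eHCC 9.12, so the falls are smaller against the controls of their own block. In Krt19-high nodules the change was -0.93 ± 0.41 and missed the threshold (adjusted p = 0.0739). It passed when those nodules and controls were fitted alone (adjusted p = 0.00448) and with array weights (-0.9, adjusted p = 0.0143). Within the block of the run A nodules the change was -1.34 (adjusted p = 0.00375), and within that of run B -1.29 (adjusted p = 0.0424), each with 2 controls. With the run as a factor the change was -1.23 (adjusted p = 0.0315). With number blocks as a factor it was -1.31 and did not pass (adjusted p = 0.071). In aHCC it was -1.34 ± 0.47 (adjusted p = 0.0212), a call lost under several alternatives. Without sample 29, where the probe was not detected, the change was -0.92 (adjusted p = 0.0737). With sample 29 kept it was -1.56 (adjusted p = 0.115) with number blocks as a factor, -1.25 (adjusted p = 0.0584) without controls 25 to 27 and -0.74 (adjusted p = 0.117) with array weights.

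Changes of the enzymes of the alternative route were under 1 on the log2 scale in every lesion group. Cyp27a1 read 13.25, 13.42 and 13.78 in controls, 13.19, 13.28 and 13.90 in Krt19-low nodules, 12.61, 12.90 and 13.37 in Krt19-high nodules, and 12.69, 13.30 and 13.82 in aHCC. It read 12.86, 12.60, 12.44 and 13.08 in adenomas and 12.88, 11.99, 12.70, 12.98 and 12.80 in eHCC. Only the adenomas and eHCC lay wholly below the controls.

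Cyp27a1 fell by 0.54 ± 0.12 in Krt19-high nodules (adjusted p = 0.000285), by 0.73 ± 0.18 in adenomas (adjusted p = 0.00172) and by 0.81 ± 0.17 in eHCC (adjusted p = 0.00015), folds of 1.46, 1.66 and 1.76. Fitting the blocks of 12 consecutive sample numbers as a factor gave -0.60 in adenomas with an adjusted p of 0.0506. In aHCC the change was -0.14 ± 0.14 (adjusted p = 0.463), and against all 10 controls the interval of -0.42 to 0.14 leaves out the size measured in eHCC. That depends on the controls used. The 3 controls in the block of the aHCC arrays averaged 13.75, and those of the other blocks 13.34 to 13.41. Within the aHCC block and without sample 29 the value was -0.39 ± 0.19 (adjusted p = 0.189).

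Cyp7b1, which hydroxylates the products of Cyp27a1, was lower in all 5 lesion groups, with changes between -0.67 and -0.96. Its levels were 8.60, 9.16 and 10.31 in controls, 7.72, 8.28 and 9.38 in Krt19-low nodules, 8.22, 8.41 and 8.62 in Krt19-high nodules, and 7.52, 8.58 and 8.95 in aHCC. Adenomas read 8.46, 8.11, 8.99 and 8.91, and eHCC 7.98, 9.15, 8.29, 9.12 and 8.35. All 5 groups overlapped the controls, whose own spread was wide (SD 0.53, n = 10).

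The change of Cyp7b1 was -0.96 ± 0.19 in Krt19-low nodules (adjusted p = 0.000504), -0.88 ± 0.19 in Krt19-high nodules (adjusted p = 0.000303) and -0.87 ± 0.20 in aHCC (adjusted p = 0.000413). It was -0.67 ± 0.25 in adenomas (adjusted p = 0.0457) and -0.71 ± 0.23 in eHCC (adjusted p = 0.0168). These last calls rest on single arrays: the adjusted p was 0.122 without adenoma sample 37, 0.22 without adenoma sample 41, 0.0869 without eHCC sample 38 and 0.0561 without eHCC sample 40. With number blocks as a factor the aHCC value was -0.78 (adjusted p = 0.0589). Another background correction and normalization (neqc) gave a larger adenoma value that did not pass, -0.91 (adjusted p = 0.0788).

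Akr1d1 passed in no comparison. Its levels were 11.89, 12.16 and 12.33 in controls, 11.85, 12.07 and 12.64 in Krt19-low nodules, 11.98, 12.33 and 12.91 in Krt19-high nodules, and 8.08, 12.19 and 12.66 in aHCC. Adenomas read 12.53, 12.81, 12.48 and 12.75, and eHCC 12.91, 11.83, 12.82, 12.75 and 12.85. It was the only one of the 10 genes whose adenoma arrays all lay above the highest control, as 9.04% of all features did, and 4 of the 5 eHCC arrays lay there too.

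The change of Akr1d1 was 0.50 ± 0.40 in adenomas (adjusted p = 0.397), 0.50 ± 0.37 in eHCC (adjusted p = 0.332) and 0.24 ± 0.30 in Krt19-high nodules (adjusted p = 0.59). Its spread in the pooled fit includes aHCC sample 29 at 8.08, where the next lowest aHCC array read 10.96. With only the groups compared in the fit, the same values had adjusted p-values of 0.000576 in adenomas, 0.0114 in eHCC and 0.0272 in Krt19-high nodules. The aHCC value was -0.39 ± 0.31 with sample 29 and 0.07 without it.

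**Figure D2:**
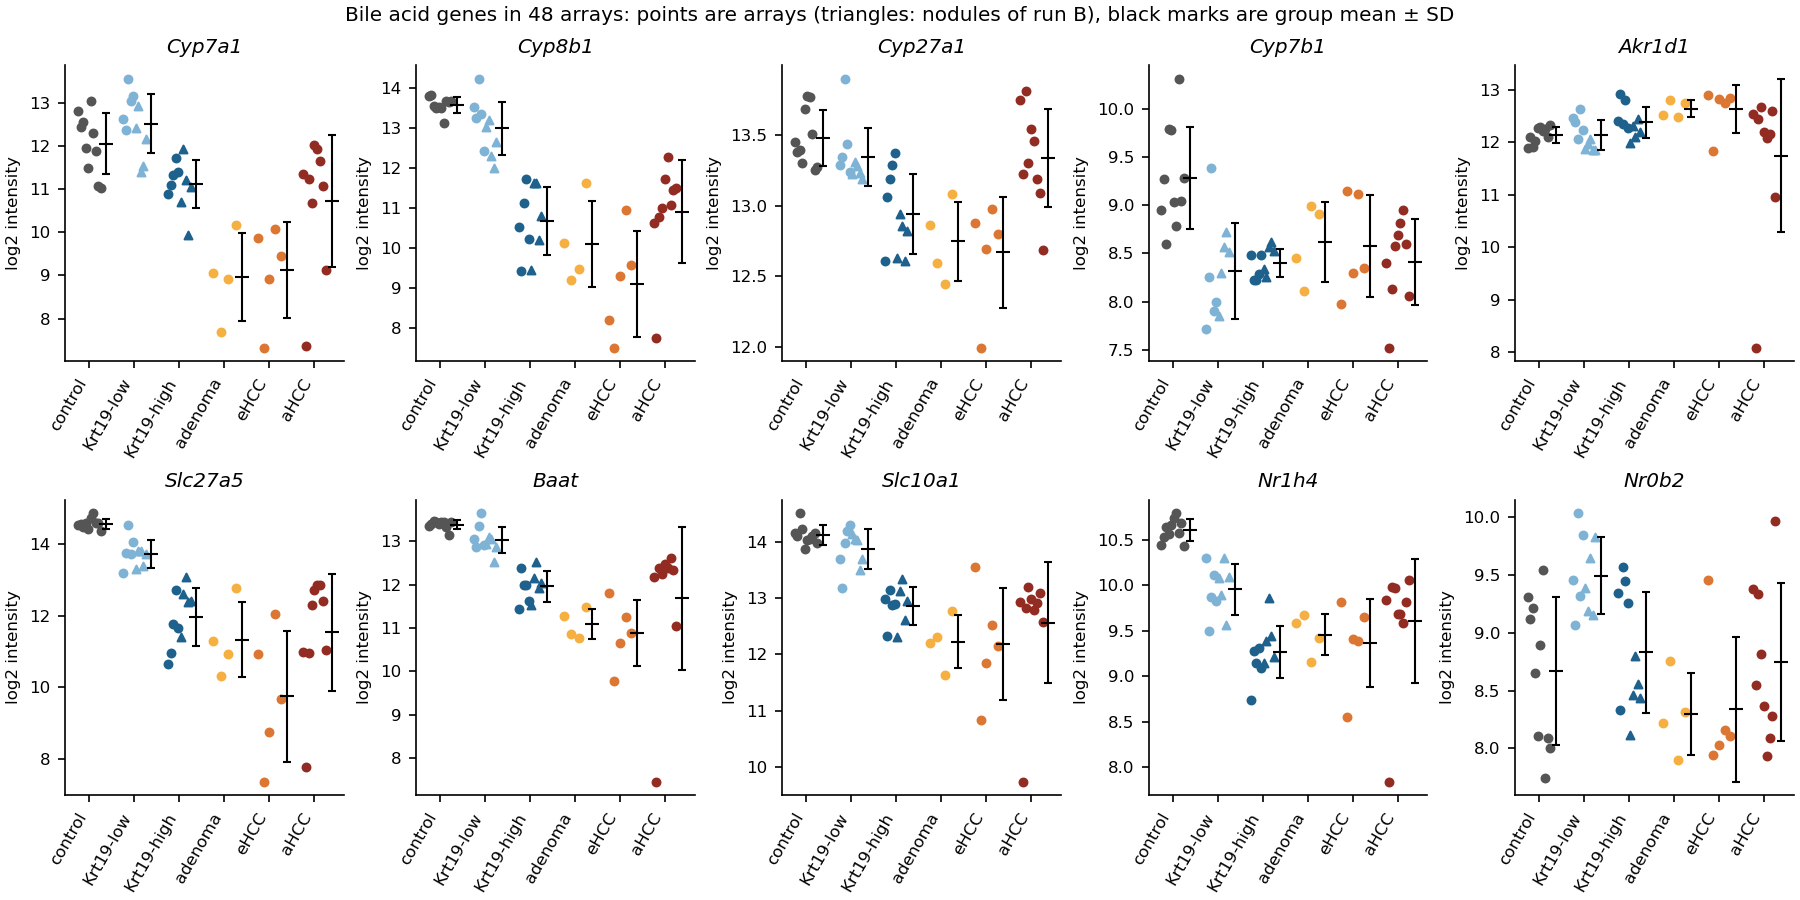
Log2 intensity of each of the 10 genes (1 panel a gene) in every array, as points by group (triangles for nodules of run B), with black marks at the group mean ± SD. In the panel of Cyp8b1 the Krt19-low nodules overlap the controls and the Krt19-high nodules lie below them, in that of Slc27a5 9 of the 10 Krt19-low nodules lie below the lowest control and the Krt19-high nodules lower still, and 1 aHCC array (sample 29) lies far below the other 8 in the panels of Baat, Slc10a1 and Akr1d1.

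Slc27a5, the bile acyl-CoA synthetase, had the largest fold of the 10 genes in eHCC. It read 14.38, 14.58 and 14.88 in controls, 13.19, 13.75 and 14.54 in Krt19-low nodules, 10.65, 12.09 and 13.10 in Krt19-high nodules, and 7.77, 12.31 and 12.87 in aHCC. Adenomas read 11.31, 10.32, 10.94 and 12.78, and eHCC 10.93, 7.35, 8.75, 12.05 and 9.67. Krt19-high nodules, adenomas, eHCC and aHCC each lay wholly below the controls, 9 of the 10 Krt19-low nodules lay below the lowest control, and the Krt19-high range did not reach the Krt19-low range.

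The change of Slc27a5 was -4.83 ± 0.63 in eHCC, 28.5-fold lower (adjusted p = 8.77e-08). Leaving out 1 eHCC array at a time moved that value between -5.41 and -4.23. The change was -3.24 ± 0.68 in adenomas (adjusted p = 0.000284), -3.04 ± 0.53 in aHCC (adjusted p = 1.03e-05) and -2.61 ± 0.45 in Krt19-high nodules (adjusted p = 8e-06). In Krt19-low nodules the value was -0.84 ± 0.45 with an adjusted p of 0.257. The spread of Slc27a5 was unequal, with an SD of 0.14 in controls, 0.39 in Krt19-low nodules and 1.83 in eHCC, and a fit of Krt19-low nodules and controls alone gave an adjusted p of 3.4e-05 for the same value.

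Baat, the amino acid N-acyltransferase that follows Slc27a5, read 13.14, 13.43 and 13.46 in controls, 12.53, 12.99 and 13.65 in Krt19-low nodules, 11.45, 11.99 and 12.52 in Krt19-high nodules, and 7.45, 12.34 and 12.62 in aHCC. In adenomas it read 11.28, 10.87, 10.76 and 11.48 and in eHCC 11.81, 9.77, 10.66, 11.26 and 10.89. Its groups separated as those of Slc27a5 did, with every Krt19-high nodule, adenoma, eHCC and aHCC below the lowest control.

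Baat fell by 1.43 ± 0.35 in Krt19-high nodules (adjusted p = 0.00108), by 2.29 ± 0.50 in adenomas (adjusted p = 0.000444) and by 2.51 ± 0.46 in eHCC (adjusted p = 3.25e-05), and it fell by 1.70 ± 0.39 in aHCC (adjusted p = 0.000434). Folds were 2.69, 4.89, 5.68 and 3.26. In Krt19-low nodules the value was -0.35 ± 0.35 (adjusted p = 0.604), with an adjusted p of 0.00895 when fitted with the controls alone. Baat was not detected in aHCC sample 29, at 7.45, where the other aHCC arrays read 11.05 to 12.62.

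For uptake, Slc10a1 (NTCP) read 13.87, 14.10 and 14.51 in controls, 13.17, 14.00 and 14.29 in Krt19-low nodules, 12.32, 12.91 and 13.33 in Krt19-high nodules, and 9.74, 12.91 and 13.20 in aHCC. Adenomas read 12.20, 12.31, 11.63 and 12.77, and eHCC 13.56, 10.84, 11.85, 12.53 and 12.15. It too lay wholly below the controls in Krt19-high nodules, adenomas, eHCC and aHCC.

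Slc10a1 fell by 1.26 ± 0.27 in Krt19-high nodules (adjusted p = 0.000262), by 1.89 ± 0.41 in adenomas (adjusted p = 0.000404), by 1.93 ± 0.38 in eHCC (adjusted p = 7.38e-05) and by 1.56 ± 0.32 in aHCC (adjusted p = 0.000102). The folds lay between 2.40 and 3.82. In Krt19-low nodules it was -0.25 ± 0.27 (adjusted p = 0.653).

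Nr1h4, the bile acid receptor, was the only one of the 10 genes whose Krt19-low nodules all lay below the lowest control, as 0.475% of all features did. It read 10.43, 10.61 and 10.80 in controls, 9.50, 9.99 and 10.31 in Krt19-low nodules, 8.74, 9.25 and 9.86 in Krt19-high nodules, and 7.84, 9.82 and 10.06 in aHCC. Adenomas read 9.59, 9.67, 9.15 and 9.42, and eHCC 9.82, 8.55, 9.41, 9.39 and 9.65. No lesion array of any of the 5 groups reached the control range.

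Nr1h4 fell by 0.65 ± 0.17 in Krt19-low nodules (adjusted p = 0.0078) and by 1.34 ± 0.17 in Krt19-high nodules (adjusted p = 1.86e-08). It fell by 1.15 ± 0.26 in adenomas (adjusted p = 0.000736), by 1.24 ± 0.24 in eHCC (adjusted p = 7.06e-05) and by 1.00 ± 0.20 in aHCC (adjusted p = 9.8e-05), folds of 2.22, 2.37 and 2.00. With number blocks as a factor the Krt19-low value was -0.59 and its adjusted p 0.132. Without aHCC sample 29 the aHCC value was -0.78.

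Nr0b2, the repressor that Nr1h4 induces, passed in 1 of the 5 lesion groups. It read 7.74, 8.78 and 9.54 in controls, 9.07, 9.43 and 10.04 in Krt19-low nodules, 8.12, 8.68 and 9.57 in Krt19-high nodules, and 7.94, 8.55 and 9.97 in aHCC. Adenomas read 8.22, 8.75, 7.90 and 8.32, and eHCC 9.46, 7.95, 8.03, 8.16 and 8.11. Every lesion group overlapped the controls.

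Nr0b2 rose by 0.83 ± 0.23 in Krt19-low nodules, a fold of 1.77 (adjusted p = 0.0144). Its changes were 0.16 ± 0.23 in Krt19-high nodules, -0.37 ± 0.34 in adenomas, -0.33 ± 0.31 in eHCC and 0.08 ± 0.26 in aHCC, none past the threshold. Control levels of Nr0b2 moved with the sample numbers: the 3 controls among samples 37 to 48 read 7.74 to 8.09. With number blocks as a factor the Krt19-low value was 0.42 (adjusted p = 0.463), and the adenoma and eHCC values turned to 0.35 and 0.39, again not past the threshold.

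The groups were also set against the controls by range. All Krt19-high nodules lay below every control for 5 genes (5.13% of features), all adenomas for 7 (7.92%), all eHCC for 7 (6.97%) and all aHCC for 5 (4.02%), beside 1 in Krt19-low nodules, and all adenomas lay above every control for 1 gene, Akr1d1. The 5 of Krt19-high nodules and aHCC were Cyp8b1, Slc27a5, Baat, Slc10a1 and Nr1h4, and adenomas and eHCC added Cyp7a1 and Cyp27a1. The mean over the 8 hepatocyte markers likewise lay below every control in all adenomas, eHCC and aHCC. Counted per array, 6 to 8 of the 10 genes lay below the lowest control in each Krt19-high nodule, 7 or 8 in each adenoma and eHCC, 5 to 9 in each aHCC and 1 to 8 in each Krt19-low nodule.

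**Figure D3:**
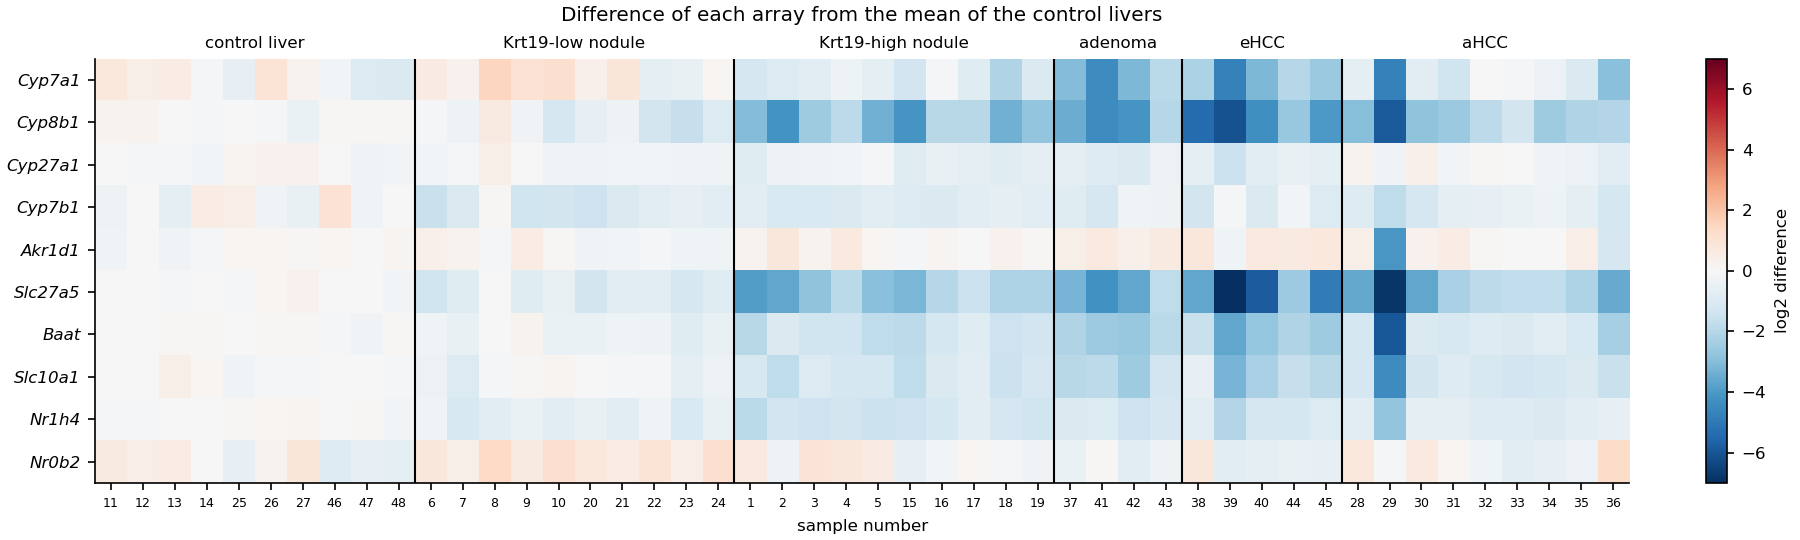
Difference of every array from the mean of the 10 control livers, on the log2 scale, for the 10 genes (rows) and 48 arrays (columns, by sample number within group). The rows of Cyp8b1 and Slc27a5 are the darkest across Krt19-high nodules, adenomas, eHCC and aHCC, and the column of aHCC sample 29 is dark for Cyp8b1, Slc27a5, Baat, Cyp7a1, Slc10a1 and Akr1d1.

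Krt19-high and Krt19-low nodules were then compared with each other. 8 of the 10 genes were lower in Krt19-high nodules, against 9.01% of all features. Cyp8b1 differed by -2.33 ± 0.40 (5.01-fold lower, adjusted p = 2.72e-05), Slc27a5 by -1.77 ± 0.45 (3.41-fold, adjusted p = 0.0037) and Cyp7a1 by -1.40 ± 0.41 (2.63-fold, adjusted p = 0.0122). Baat was 2.11-fold lower (adjusted p = 0.0248; 0.0502 without sample 15), Slc10a1 2.02-fold (adjusted p = 0.00639), Nr1h4 1.61-fold (adjusted p = 0.00273), Cyp27a1 1.32-fold (adjusted p = 0.0118) and Nr0b2 1.58-fold (adjusted p = 0.0379). The Nr0b2 call was lost on leaving out any one of 9 nodule arrays, with an adjusted p of up to 0.0967 (without sample 2). Cyp7b1 differed by 0.08 ± 0.19, with an interval of -0.31 to 0.47, and Akr1d1 by 0.24 ± 0.30.

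The titles gave another picture. Between titled KRT19-positive and KRT19-negative nodules 0 of the 10 genes passed with limma, as did 0% of all features, and 0 had an unadjusted p under 0.05. In samples 1 to 10, 3 genes were lower in the titled positives against 3.55% of features: Cyp8b1 at -2.75 ± 0.56, Slc27a5 at -2.30 ± 0.64 and Nr1h4 at -0.81 ± 0.24. The Nr1h4 call was lost on leaving out any one of 5 of the 10 arrays (samples 1, 5, 6, 8 and 9), with an adjusted p of up to 0.0973, and the Slc27a5 call without sample 1 (adjusted p = 0.0623) or 8 (0.0587). Under neqc, another background correction and normalization, they had 0.0568 and 0.052, which left Cyp8b1 alone. In samples 15 to 24, 1 gene was higher in the titled positives against 2.7% of features, Cyp8b1 by 1.90 ± 0.56 (adjusted p = 0.0314). That call was lost on leaving out any one of 7 of the arrays, and under neqc (adjusted p = 0.0756).

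The difference between the runs, which is the interaction of title and run, passed for the same 8 genes as the comparison of Krt19-high with Krt19-low nodules. It is the same contrast at another scale, and 9.01% of features were lower by it. For Cyp8b1 it was -4.65 ± 0.79. Among the markers of other cells, cholangiocyte means spanned 9.19 to 9.63 in Krt19-high nodules and 7.69 to 9.24 in Krt19-low nodules, over 7 markers of which Krt19 is one, and stellate and fibroblast means spanned 9.34 to 9.96 and 8.68 to 9.62. In Krt19-high nodules 3 of 5 red cell, 1 of 8 hepatocyte and 1 of 5 macrophage markers were lower than in Krt19-low nodules. Another macrophage marker was higher, and no endothelial or lymphocyte marker passed. The part of other cell types in the differences between the nodule sets was not tested.

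**Figure D4:**
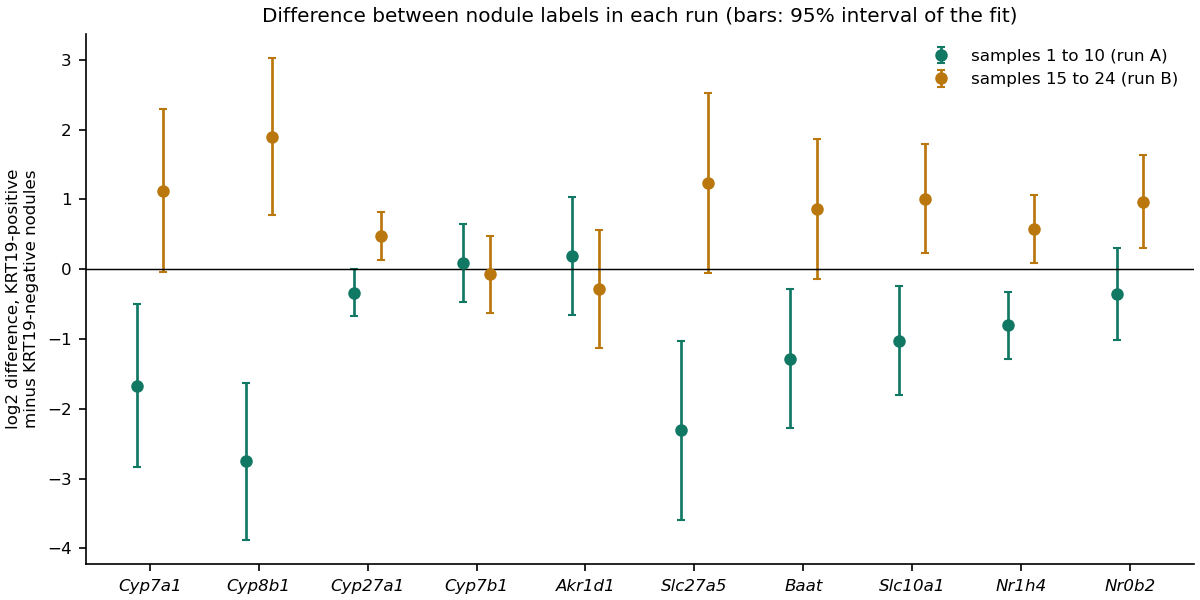
Difference between titled KRT19-positive and KRT19-negative nodules in log2 intensity, with its 95% interval, for samples 1 to 10 (run A) and 15 to 24 (run B). Cyp8b1 sits at -2.75 for run A against 1.90 for run B, and Cyp7b1 and Akr1d1 sit near 0 in both.

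Later lesions were set against the Krt19-high nodules. In adenomas 1 of the 10 genes was lower than in Krt19-high nodules (0.89% of features were): Cyp7a1, at -2.17 ± 0.54 (4.50-fold, adjusted p = 0.0197). In eHCC 3 were lower (2.17% of features): Slc27a5 at -2.22 ± 0.55 (adjusted p = 0.00944), Cyp7a1, which was 4.00-fold lower (adjusted p = 0.0101) and Cyp8b1 at -1.57 ± 0.48 (adjusted p = 0.0445). In aHCC 1 was higher (12.4% of features), Cyp27a1 by 0.40 ± 0.12 (adjusted p = 0.0118), and the other 9 did not pass. Without aHCC sample 29 Nr1h4 passed as well, higher by 0.56 (adjusted p = 0.000237), and with array weights it was higher by 0.53 (adjusted p = 6.09e-05). Several of these calls rest on single arrays. The Cyp8b1 call in eHCC was lost on leaving out any one of 10 of 15 arrays, with an adjusted p of up to 0.241 (without eHCC sample 39), and it had 0.068 with no filter on detection, 0.0625 with only the groups compared and 0.0562 without controls 25 to 27. Without eHCC sample 39, Slc27a5 (adjusted p = 0.101) and Cyp7a1 (adjusted p = 0.091) did not pass either, and without eHCC sample 40 Slc27a5 had 0.0509. The Cyp7a1 call in adenomas was lost without adenoma sample 37 (adjusted p = 0.0542), 41 (0.174) or 42 (0.0651). The adenoma and eHCC comparisons were added after the values were seen. Krt19-high nodules and 10-month lesions share no block of numbers, so no block gives a value of its own, and with the block as a factor both counts were 0. Cyp7a1 was then at -1.06 in adenomas (adjusted p = 0.774) and -0.89 in eHCC (adjusted p = 0.726). With that factor the aHCC value of Cyp27a1 was 0.04 (adjusted p = 0.98), and none of the 10 genes passed in aHCC.

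Adenomas and eHCC, both of 10 months, were not told apart. 0 of the 10 genes passed with limma, as did 0% of all features, 1 had an unadjusted p under 0.05 and no alternative called any. That gene was Slc27a5, at -1.59 ± 0.77 in eHCC against adenoma, with an interval of -3.15 to -0.03. The interval for Cyp8b1 was -2.57 to 0.58 and that for Cyp7a1 was -1.22 to 1.56, so differences of more than 2-fold either way remain possible for Cyp7a1.

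In aHCC 3 of the 10 genes were higher than in eHCC, against 7.37% of all features. Cyp27a1 was higher by 0.67 ± 0.17 (adjusted p = 0.00485), Cyp8b1 by 1.81 ± 0.65 (adjusted p = 0.0498) and Slc27a5 by 1.80 ± 0.64 (adjusted p = 0.0488). The last pair lay at the threshold: without eHCC sample 39, the eHCC array with the lowest mean of hepatocyte markers, the values were 1.41 (adjusted p = 0.193) and 1.20 (adjusted p = 0.255). Leaving out eHCC samples 40 or 45 also lost both calls, with adjusted p-values of 0.0773 and 0.0628 for Cyp8b1 and 0.143 and 0.0862 for Slc27a5, and without sample 38 Cyp8b1 had 0.133. Without aHCC sample 29, 5 genes were higher. These groups lie in separate blocks of sample numbers, and with the block as a factor 0 of the 10 passed.

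aHCC sample 29 carried the lowest aHCC level of 8 of the 10 genes, all but Cyp27a1 and Nr0b2. Against the other 8 aHCC arrays it read 7.74 where they read 10.63 to 12.28 for Cyp8b1, 7.77 against 10.96 to 12.87 for Slc27a5, 9.74 against 12.58 to 13.20 for Slc10a1 and 8.08 against 10.96 to 12.66 for Akr1d1. Without it the aHCC changes against control were -2.28 for Cyp8b1, -2.56 for Slc27a5, -1.21 for Slc10a1 and -1.17 for Baat, all past the threshold. Within samples 25 to 36, which hold 3 controls and all aHCC, 0 of the 10 genes passed with sample 29 and 6 without it.

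Other genes of bile acid handling were counted from lists chosen with earlier results of these data known. Their counts stand beside the shares of all features called: 5.07% lower and 5.28% higher in Krt19-low nodules, 17.2% and 17.4% in Krt19-high nodules, 12.6% and 13.5% in adenomas, 15.1% and 17% in eHCC, and 18.8% and 19.2% in aHCC. Of 18 tested genes of the rest of synthesis, 2 were lower and 1 was higher in Krt19-low nodules, 10 and 3 in Krt19-high nodules, 7 and 3 in adenomas, 11 and 3 in eHCC, and 10 and 1 in aHCC. The 1 higher in Krt19-low nodules is near the background share. Outside the Krt19-low nodules the 2 largest falls of this list were those of Acox2 and Amacr. The oxidase Acox2 changed by -1.22, -2.04, -2.60 and -2.23, and the racemase Amacr by -1.29, -1.91, -2.32 and -1.72, in Krt19-high nodules, adenomas, eHCC and aHCC in turn. The thiolase Scp2 was lower in all 5 groups, with changes from -0.77 in Krt19-low nodules to -1.40 in aHCC. Por, which passes electrons to microsomal cytochromes, rose by 1.27 in Krt19-low and 1.70 in Krt19-high nodules, and Star, a cholesterol carrier of mitochondria, by 1.15 in adenomas.

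Among 11 tested genes of bile acid and bile lipid transport the directions were mixed: 0 lower and 3 higher in Krt19-low nodules, 3 and 3 in Krt19-high nodules, 5 and 2 in adenomas, 6 and 2 in eHCC, and 4 and 4 in aHCC. Abcc3, an efflux pump of the basolateral membrane, rose in all 5 groups, by 3.42 in Krt19-low nodules, 4.48 in Krt19-high nodules, 4.36 in adenomas, 4.42 in eHCC and 3.21 in aHCC. Ephx1, the microsomal epoxide hydrolase, rose with it, by 1.53 to 2.29. The sinusoidal uptake carrier Slco1b2 changed by -1.84 in Krt19-high nodules, -3.03 in adenomas, -3.07 in eHCC and -2.31 in aHCC, and in Krt19-low nodules its value was -0.45, not past the threshold. Ugt2b1, a glucuronosyltransferase, changed by -2.39 in adenomas and -3.34 in eHCC.

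Of 22 tested regulators, 2 were lower and 2 higher in Krt19-low nodules, 8 and 2 in Krt19-high nodules, 11 and 1 in adenomas, 11 and 1 in eHCC, and 10 and 1 in aHCC. The hepatic transcription factor Onecut1 changed by -1.16 in Krt19-high nodules, -3.00 in adenomas, -3.09 in eHCC and -1.86 in aHCC, while its Krt19-low value was 0.09. Foxa3 was lower in all 5 groups, from -0.55 to -1.27, and Rxrg, a partner of nuclear receptors, changed by -1.05 to -1.28 outside the Krt19-low nodules. Mafg, a small MAF protein, rose in all 5 groups by 0.50 to 1.35, and the xenobiotic receptor Nr1i3 rose in the nodules by 1.23 (Krt19-low) and 1.10 (Krt19-high). The median change over each of these lists lay between -0.76 (transport, adenomas) and 0.17 (transport, Krt19-low nodules), beside the medians near 0 over all features.

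**Figure D5:**
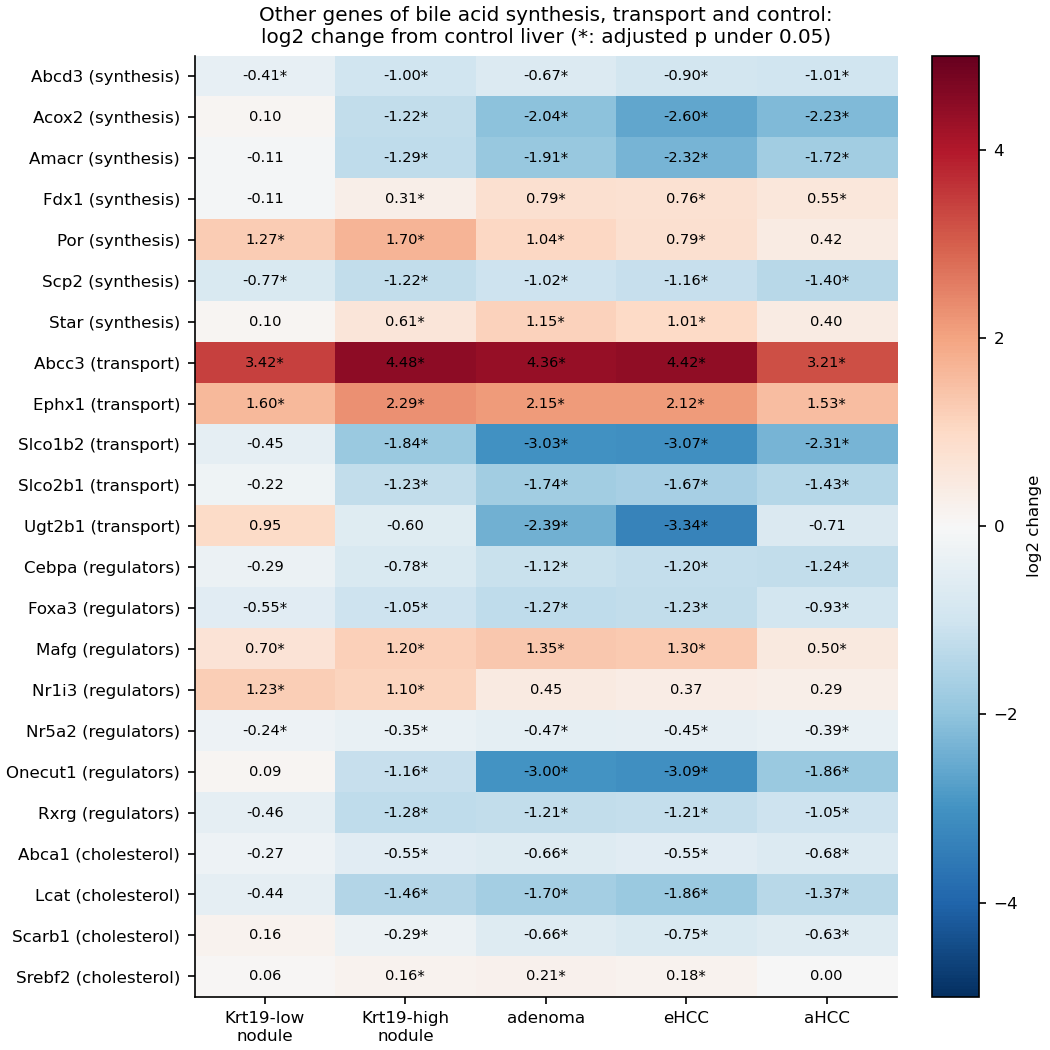
Log2 changes against control liver in 5 lesion groups (columns) for named genes of the wider synthesis, transport, regulator and cholesterol lists (rows), as coloured cells with the value printed and an asterisk where the gene passed. Abcc3 is high in every column, at 3.21 to 4.48, and Slco1b2 and Onecut1 are lowest in adenomas and eHCC.

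Genes nearest in pattern were found over the 38 lesion arrays by the root mean square difference of their departures from the control mean. Nearest to Cyp8b1 were Cyp4a2 (0.66), Sult1c3 (0.67) and Cyp4a3 (0.71), and nearest to Slc27a5 were Cyp3a23-3a1 (0.57), Cyp4a3 (0.68) and Sult1c3 (0.71). For Slc10a1 they were the carrier Slco2b1 (0.30), the complement subunit C8g (0.32) and Abcg3 (0.32). Cyp3a23-3a1 changed by -0.90, -3.05, -3.22, -4.99 and -2.73 in Krt19-low nodules, Krt19-high nodules, adenomas, eHCC and aHCC, beside -0.84, -2.61, -3.24, -4.83 and -3.04 for Slc27a5. Members of one cytochrome family, such as Cyp4a2 and Cyp4a3, are close relatives, so their probes may bind each other's transcripts.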

How the data were processed

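RNA from laser-microdissected rat liver was hybridised to Illumina beadchips, 1 array per sample. The deposited table held a bead intensity and a detection p-value per probe, and the submitters' processing notes name BeadStudio 3.0.19.0 as the authors' software. The file is described as non-normalized, but its deposited intensity columns had medians of 159.02 to 159.62 and nearly equal sorted values, so they had been normalized between arrays before deposit and no further normalization was applied.

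Intensities were taken to log2. Probes with a detection p-value under 0.05 in at least 4 arrays were kept (13679 of 22523), and the brightest probe per symbol was used, giving 9273 named genes and 4206 unnamed probes. Symbols came from the platform annotation: 13793 probes had 1 symbol and 8730 had none. Linear models were fitted across all 13479 features by the lmFit and eBayes functions of limma 3.58.1 (R 4.3.3), and p-values adjusted by Benjamini-Hochberg over all features, first with the 6 titled groups and then with the nodules as 4 sets (title by run). Krt19-high minus Krt19-low was the mean of the opposed label differences of both runs. The code was tested on simulated data. The 10 genes, the lists, the nodule split and the rule for naming genes were chosen with earlier results of these data known. Named genes were the 10, Krt19, the 2 largest rises and falls of each wider list per comparison among those that passed, and the 3 genes nearest in pattern to Cyp8b1, Slc27a5 and Slc10a1.

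Alternatives were another background correction and normalization (neqc), other detection filters, array weights, an intensity trend, only the groups compared, blocks of consecutive sample numbers, and leaving out arrays. Sample numbers differ between all groups and pair no samples. Sequences are RefSeq's, read from promoter tables. No probe sequence or genome was used here.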

Additional observations from a re-analysis of the deposited data

Results flagged for a closer look

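Each of the 10 genes was checked in 8 groups (control liver, adenoma, eHCC, aHCC and the nodules by title and by Krt19 level) for 1 array lying far from the others by Dixon's test. It found such an array in 14 of 80 gene and group pairs, where chance gives about 1 in 20, and the nodule groups share arrays. 6 of the 14 were aHCC sample 29, at 7.74 for Cyp8b1, 8.08 for Akr1d1, 7.77 for Slc27a5, 7.45 for Baat, 9.74 for Slc10a1 and 7.84 for Nr1h4 (log2 intensity), each below the other 8 aHCC arrays. eHCC sample 39 was low for Cyp27a1, at 11.99, and for Akr1d1, at 11.83. eHCC sample 38 was high for Nr0b2, at 9.46 where the other 4 read 7.95 to 8.16. Among the nodules, sample 8 was high for Cyp27a1, at 13.90, sample 1 was low for Cyp27a1, at 12.61, and sample 2 was low for Nr0b2, at 8.33. Among the controls, sample 27 was low for Cyp8b1, at 13.14, and sample 47 low for Baat, also at 13.14.

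The difference between titled KRT19-positive and KRT19-negative nodules itself differed between samples 1 to 10 and samples 15 to 24, by the interaction term in limma, for 8 of the 10 genes. The difference in the first run minus that in the second was -4.65 for Cyp8b1, -3.54 for Slc27a5, -2.79 for Cyp7a1, -2.15 for Baat, -2.03 for Slc10a1, -1.38 for Nr1h4, -1.33 for Nr0b2 and -0.81 for Cyp27a1 (log2). The Krt19 transcript opposed the titles in the second run, and whether samples or titles were exchanged was not tested.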

How the results depend on the processing

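Over all comparisons and alternatives, 3030 of 3310 recomputed values of single genes kept their direction and side of the threshold or moved by less than their standard error, 151 lost the call, 88 gained it, 40 uncalled values moved further, and 1 called value turned: Cyp27a1 in KRT19-negative nodules against control was 0.03 (adjusted p = 0.963) within samples 1 to 12. The counts of passed genes stayed within 1.5 times of those reported for Krt19-high nodules, adenomas and eHCC against control, under every alternative run. The counts of 0 for eHCC against adenomas and for titled KRT19-positive against KRT19-negative nodules stayed at 0. For aHCC against control the count was 0 within samples 25 to 36. With the number block as a factor the count was 2 for KRT19-negative nodules, 2 for KRT19-positive nodules and 1 for Krt19-low nodules against control, 0 for aHCC against eHCC and for aHCC, adenomas and eHCC against Krt19-high nodules, and 2 for the label difference in run B. With the run as a factor it was 3 for KRT19-negative nodules, 0 for adenomas and eHCC against Krt19-high nodules, and 2 in run B, and for comparisons with aHCC that fit was not run. Array weights gave 7 for KRT19-positive nodules, 6 for aHCC against eHCC, 2, 3 and 5 for aHCC, adenomas and eHCC against Krt19-high nodules, 6 in run A and 8 in run B. Fitting only the groups compared gave 8 for KRT19-positive nodules, 6 for Krt19-low nodules, 1 for aHCC against eHCC, 2 for adenomas against Krt19-high nodules, 6 in run A and 9 in run B. With neqc it was 2 for KRT19-negative nodules, 5 for Krt19-high against Krt19-low nodules and the interaction, 1 in run A and 0 in run B, where Baat, Cyp7a1 and Nr0b2 no longer passed between the nodule sets. No filter gave 3 for KRT19-negative nodules and 1 for aHCC against eHCC, the stricter filter 2 in run B, and leaving out controls 25 to 27 gave 2 and 1 for those same comparisons. Within samples 1 to 12 the count was 0 for KRT19-negative and Krt19-low nodules and 6 for the label difference, and within samples 13 to 24 it was 8 for KRT19-negative, 0 for KRT19-positive and 0 for Krt19-low nodules and 9 for the label difference. Without aHCC sample 29, chosen after its values were seen, it was 2 for aHCC against Krt19-high nodules and 5 for aHCC against eHCC. Leaving out 1 array at a time gave 0 to 1 for adenomas and 0 to 3 for eHCC against Krt19-high nodules, 1 to 4 for aHCC against eHCC, 6 to 8 for Krt19-high against Krt19-low nodules, 1 to 3 in run A and 0 to 1 in run B. Smaller fits test fewer arrays, and otherwise the cause was not tested. No paired analysis was possible because every sample number belongs to 1 sample and no group shares numbers with another. Signal near background limits low probes: in aHCC sample 29 Cyp7a1 and Baat were not detected, so their values there are bounds.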

Other observations

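Of 6 tested genes of cholesterol supply, 3 were lower and 1 was higher in each of Krt19-high nodules, adenomas and eHCC, and 4 were lower in aHCC. Of all features 17.2% were lower and 17.4% higher in Krt19-high nodules, 12.6% and 13.5% in adenomas, 15.1% and 17% in eHCC, and 18.8% were lower in aHCC. In Krt19-low nodules their adjusted p-values (limma) lay between 0.119 and 0.989. Lcat, which esterifies cholesterol in plasma lipoproteins, changed by -1.46 in Krt19-high nodules, -1.70 in adenomas, -1.86 in eHCC and -1.37 in aHCC (log2). Scarb1, the receptor for high-density lipoprotein, fell by 0.75 in eHCC, and Abca1, a cholesterol exporter, by 0.68 in aHCC. Srebf2, the transcription factor of sterol synthesis, rose by 0.16 in Krt19-high nodules, 0.21 in adenomas and 0.18 in eHCC.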
